A study of Mus musculus with 6 samples.

Results

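The 9 genes described here encode parts of the T cell receptor, receptors of natural killer (NK) cells and proteins of cytotoxic granules. They were taken by symbol from the 32285 genes measured in single hematopoietic stem and progenitor cells (HSPCs) of mouse bone marrow, and all 9 had UMIs (unique molecular identifiers, each counting 1 captured transcript). They are Trbc1 and Trbc2, the constant regions of the T cell receptor beta chain, Cd3e, a signaling chain of the receptor complex, and Ncr1 and Klrd1, receptors of NK cells. The others are Gzma and Gzmb, granule proteases, Prf1, the pore-forming protein perforin, and Nkg7, a membrane protein of cytotoxic granules.

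Mature T cells recognize antigen through receptor chains held by the CD3 complex, whereas NK cells and other innate lymphocytes use germline receptors such as NKp46 (the product of Ncr1) and CD94 (the product of Klrd1). Killing by either type proceeds through granules that deliver perforin and granzymes. Bone marrow stem cells and multipotent progenitors (MPPs) are not cytotoxic cells, and the sort used here selected against cells with lineage markers.

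All mice were C57BL/6J females carrying the CD45.1 allele, aged 8 to 12 weeks and given no conditioning. They received PBS (3 libraries) or 1000000 cells of C1498, a murine acute myeloid leukemia (AML) line that carries CD45.2 (3 libraries), and marrow was taken on day 21. The model thus rests on a single leukemia line, and the labels do not say whether each library came from 1 mouse, so p-values below measure the spread between libraries. After magnetic depletion of cells with lineage markers, host cells (CD45.1+) of the LSK phenotype, that is Lin- cKit+ Sca1+, were sorted.

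The 6 libraries hold 48510 barcodes and 136322961 UMIs, and the authors' table of single cells keeps 16822 cells with a cluster number from 0 to 8 and a class (HSC, MPP2, MPP3 or MPP4). The kept cells of the 5 libraries in that table carry 1945659 to 32123508 UMIs, with 693 cells in AML replicate 1, the shallowest, and 0 in AML replicate 2. Barcodes recur between libraries, and 6900 of the 17055 barcodes of AML replicate 2 (40.5%) are in another library's matrix. Of the 1256 barcodes of PBS replicate 2, 1223 (97.4%) are also in the matrix of AML replicate 2, but only 72 kept cells (0.428%) have a barcode that is kept in another library as well, 1 of them in cluster 8. Comparisons over kept cells are therefore given with and without such cells. The sort markers were present outside cluster 8, with Kit at 83.7 CPM (counts per 1000000 UMIs) and Ly6a, which encodes Sca1, at 141 CPM. In cluster 8 they stood at 49.1 and 208 CPM.

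Positions are on the GRCm38 build (GENCODE vM21). Trbc1 (ENSMUSG00000076490, chr6:41538218-41539881, plus strand) and Trbc2 (ENSMUSG00000076498, chr6:41546730-41548352, plus strand) are neighboring constant genes of 4 exons each. Their coding parts of 518 bases differ at 23 positions and are 95.6% identical. Exon 1 differs at 1 of 375 bases, and exon 3 at 15 of 107. UMIs of the pair that rest on exon 1 could have been split between them, so each is uncertain where the other is also high. The coding bases of exon 3 (chr6:41539229-41539335 and chr6:41547772-41547878) are shown because they hold most of the differences, which are in capitals.

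Trbc1: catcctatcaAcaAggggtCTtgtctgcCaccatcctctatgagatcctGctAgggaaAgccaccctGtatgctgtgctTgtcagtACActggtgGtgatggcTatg
Trbc2: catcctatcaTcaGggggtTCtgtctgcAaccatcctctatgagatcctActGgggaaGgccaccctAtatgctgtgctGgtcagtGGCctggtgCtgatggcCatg

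The other genes are protein coding. Klrd1 (ENSMUSG00000030165) is at chr6:129591782-129598775 on the plus strand, Ncr1 (ENSMUSG00000062524) at chr7:4337724-4345164 on the plus strand and Nkg7 (ENSMUSG00000004612) at chr7:43437073-43438249 on the plus strand. Cd3e (ENSMUSG00000032093) is at chr9:44998740-45009627 on the minus strand, Prf1 (ENSMUSG00000037202) at chr10:61297833-61304680 on the plus strand and Gzma (ENSMUSG00000023132) at chr13:113093825-113100981 on the minus strand. Gzmb (ENSMUSG00000015437) is at chr14:56258838-56262260 on the minus strand.

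Promoter windows of 300 bases from RefSeq (GRCm38.p6, 250 before and 50 after the start) were given for 6 of the 9 genes, and were searched on both strands for 4 motifs. TGTGGT, the RUNX motif, was in the windows of 5 of the 6 (Ncr1, Gzma, Gzmb, Nkg7 and Prf1) and in 16.8% of all 32851 windows. AGGTGT, a T-box motif, was in those of 4 (Cd3e, Gzma, Nkg7 and Prf1) and in 13.7% of all. TGANTCA, the AP-1 motif, was in that of Gzmb alone and in 7.81% of all, and TATAAA was in 0 of the 6 and in 13.6% of all. These matches are descriptions of the letters in the windows and were not tested. Stretches upstream of the start are shown for Ncr1 (chr7:4337524-4337723, plus strand), Nkg7 (chr7:43436888-43437072, plus strand) and Gzmb (chr14:56262335-56262534, minus strand). They belong to the genes with the most unlike patterns below, 1 held almost wholly by cluster 8, 1 broad and 1 absent from cluster 8. Capitals mark the RUNX motif on either strand and, in Gzmb, also the AP-1 motif.

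Ncr1: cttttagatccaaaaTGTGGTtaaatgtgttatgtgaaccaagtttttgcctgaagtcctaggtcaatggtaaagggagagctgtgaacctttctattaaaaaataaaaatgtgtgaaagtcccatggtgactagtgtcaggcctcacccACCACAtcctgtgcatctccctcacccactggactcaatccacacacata
Nkg7: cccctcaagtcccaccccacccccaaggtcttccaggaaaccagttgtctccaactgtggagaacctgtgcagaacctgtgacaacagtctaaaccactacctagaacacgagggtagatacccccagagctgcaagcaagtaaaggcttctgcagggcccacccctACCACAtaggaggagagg
Gzmb: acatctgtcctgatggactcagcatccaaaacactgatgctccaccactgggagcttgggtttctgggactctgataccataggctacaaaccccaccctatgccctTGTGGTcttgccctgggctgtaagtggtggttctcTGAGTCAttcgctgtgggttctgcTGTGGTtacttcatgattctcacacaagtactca

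The first question was which clusters hold the 9 genes. Cluster 8, with 113 of the 16822 kept cells, held 95.5% of the Ncr1 UMIs (107 of 112), 98.6% of the Gzma UMIs (69 of 70) and 86.5% of the Trbc1 UMIs (269 of 311). It held 44.0% of the Trbc2 UMIs (177 of 402) and 18.6% of the Klrd1 UMIs (86 of 462). Of Nkg7 it held 1.96% (315 of 16042), and of Gzmb 0 of 72. Cd3e and Prf1 were near the limit of detection everywhere, with 5 and 16 UMIs among all kept cells, of which 3 and 2 were in cluster 8. The 9 genes therefore did not share 1 distribution. Because the clusters were made from the same cells, these contrasts are a description and were not tested.

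**Figure D1:**
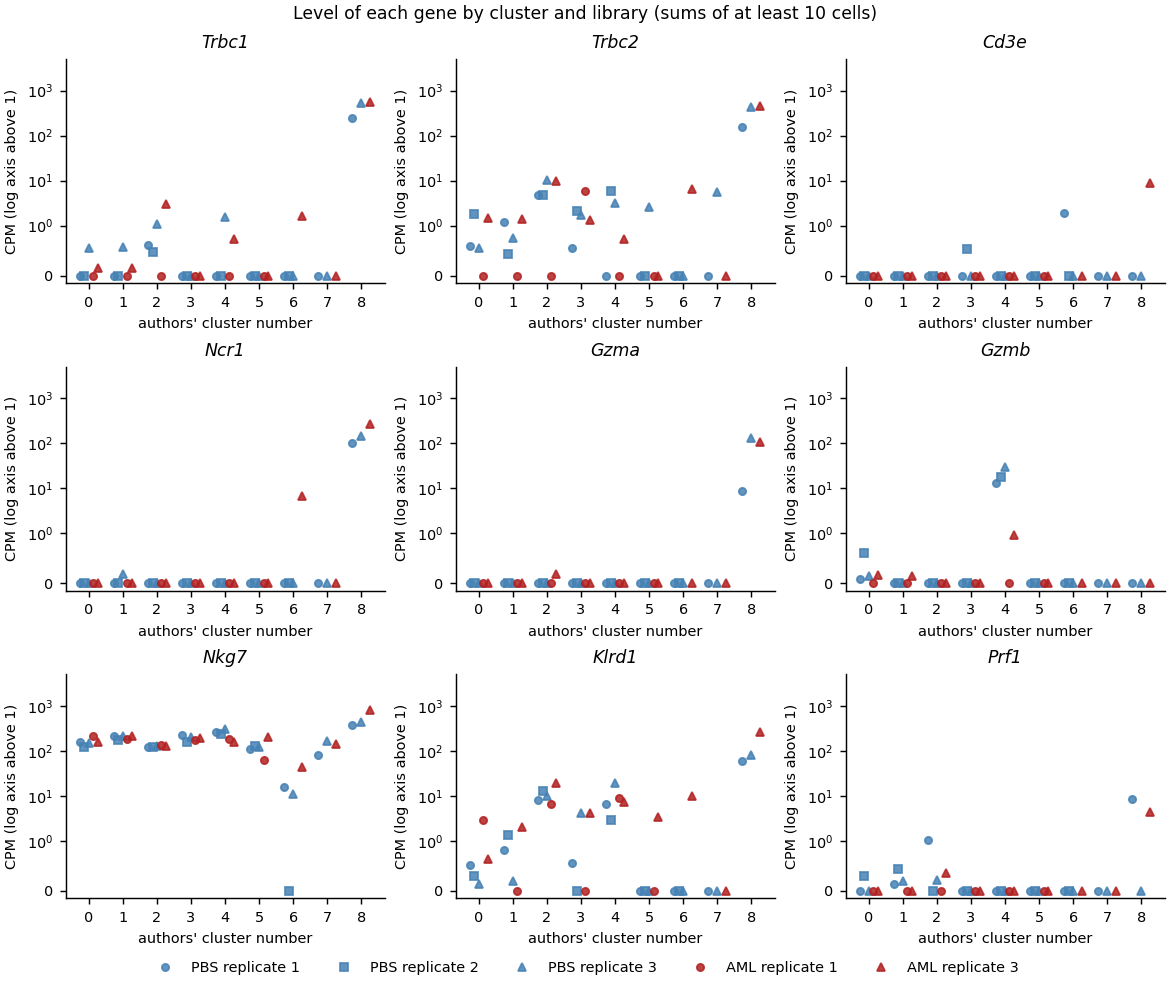
Level of each of the 9 genes (vertical axis, CPM of the summed UMIs, linear below 1 and logarithmic above) in each of the authors' clusters 0 to 8 (horizontal axis), with 1 point per library for sums of at least 10 cells, blue for PBS and red for AML. Ncr1, Gzma and Trbc1 stand far above the other clusters in cluster 8, Nkg7 is spread over clusters 0 to 7 with pooled levels of 22.1 to 208 CPM, and Gzmb has its highest points in cluster 4 and none above 0 in cluster 8.

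The receptor genes set cluster 8 apart. Trbc1 was at 528 CPM in cluster 8 and 0.445 CPM in the other 16709 kept cells, and Trbc2 at 348 and 2.39 CPM. Trbc1 was detected in 58 of the 113 cells and Trbc2 in 51, with 31 cells holding both. By library, the Trbc1 level in cluster 8 was 246, 1545 and 540 CPM for PBS replicates 1, 2 and 3, and 0 and 543 CPM for AML replicates 1 and 3. The value of 1545 CPM comes from 5 cells, as does the 0, so the libraries with 23 to 52 cells in the cluster give the firmer range. Ncr1 was at 210 CPM in cluster 8 and 0.0530 CPM outside, and was detected in 39 cells. Klrd1 was at 169 and 3.99 CPM and was detected in 29 cells, 21 of which also held Ncr1.

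The granule genes were uneven in the same cells. Gzma was at 136 CPM in cluster 8, but its 69 UMIs came from 8 cells, and 30 of them from 2 cells of PBS replicate 2. Gzmb had 0 UMIs in the 113 cells and Prf1 had 2. Nkg7 was detected in 70 of the 113 cells and stood at 619 CPM against 167 CPM outside, a ratio of 3.71. The cluster thus held the NK receptors with Nkg7 in many cells, Gzma in few, and perforin and granzyme B at or near 0.

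Cluster 8 met the naming rule for T and NK-like cells. The rule and its lists were set with earlier results of these data known, so meeting it is a description and no test. Of its 10 leading genes by fold over the other kept cells, 4 were on the T cell receptor and CD3 list (Trbc1, Tcrg-C4, Tcrg-C1 and Bcl11b). Of these, Bcl11b encodes a transcription factor and is no receptor gene. The NK cell list held 1 (Ncr1) and the cytotoxic effector list 2 (Gzma and Xcl1). The other 3 were Skap1, Txk and Klrb1b. Several defining T cell genes, chosen after their values were seen, were nevertheless at or near 0. Trac, the constant region of the alpha chain, had 2 UMIs in the 113 cells, Cd3e 3, Cd8a 1 and Cd4 0. The constant genes of the gamma chain were present, with Tcrg-C1 at 163 CPM and Tcrg-C4 at 159 CPM, and Trdc, the constant region of the delta chain, at 29.5 CPM. Markers of type 2 innate lymphoid cells (ILC2) were at 395 CPM summed over the list of 9 genes in cluster 8 and at 26.5 CPM outside, with 7 of the 9 detected and Il5 and Il13 at 0 in the cluster. Rora gave 98 of the 201 UMIs of that list in the cluster, and each of the 7 was higher there than outside. Summed in the same way, markers of neutrophils were at 0 against 9.23 CPM outside, of B cells and plasma cells at 269 against 2635 CPM, of erythroid cells at 446 against 928 CPM, and of stem and progenitor cells at 925 against 1836 CPM. Markers of monocytes and dendritic cells were at 47.2 against 12.3 CPM and of mast cells and basophils at 122 against 36.5 CPM, each with 2 genes detected in the cluster. Ccr2 gave 23 of the 24 UMIs of the former and Cpa3 61 of the 62 of the latter, so each sum is almost wholly that of 1 gene. The name T and NK-like therefore describes the leading genes of the cluster and no single lymphocyte type.

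The T cell and NK receptor genes were found together in many cluster 8 cells. Trbc1, Trbc2 or Cd3e was detected together with Ncr1 or Klrd1 in 36 of the 113 cells, without them in 42, and the NK receptors alone in 11, while 24 cells held none of the 5. Detection is limited by depth, since the median cell of cluster 8 has 3516 UMIs. Over the 113 cells, ln(1 + UMIs per 10000) of the 3 T cell receptor genes together correlated with that of Ncr1 at Pearson's r of 0.034 and with that of Klrd1 at 0.17. The 5 of 5842 genes most like the T cell receptor genes were Lck (r 0.51), a kinase of T cell receptor signaling, Bcl11b (0.51), a transcription factor of T and innate lymphoid cells, Arpp21 (0.48), 1500009L16Rik (0.43) and Trdc (0.43). The 5 most like Ncr1 plus Klrd1 were Klrk1 (0.76), which encodes the NK receptor NKG2D, AW112010 (0.73), Klrb1c (0.69), which encodes NK1.1, Ms4a4b (0.67) and Gm2682 (0.67). The cells share libraries and differ in depth, and no p is given.

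By class, cluster 8 was mostly MPP3, with 72 cells, beside 16 in MPP4, 14 in MPP2 and 11 in HSC. The authors assigned classes by module scores, so every cell has a class. Within the cluster, Trbc1 was at 242 CPM in the HSC class, 542 in MPP2, 612 in MPP3 and 339 in MPP4. Ncr1 was at 20.2, 188, 283 and 46.3 CPM in the same order, and Klrd1 at 20.2, 133, 237 and 15.4 CPM. Ncr1 in the HSC and MPP4 classes rests on 1 and 3 UMIs, and Klrd1 on 1 in each. Of the Trbc1 UMIs, 8 of 12 in HSC came from a single cell of PBS replicate 1 and 14 of 22 in MPP4 from a single cell of PBS replicate 2. Without these libraries the levels were 133 CPM in HSC and 130 CPM in MPP4. Over all ways of leaving out 1 library, Trbc1 was at 133 to 309 CPM in HSC, 361 to 602 in MPP2, 529 to 684 in MPP3 and 130 to 624 in MPP4 (highest without PBS replicate 1). Klrd1 was at 53.0 CPM in MPP2 and 152 CPM in MPP3 without AML replicate 3, and at 220 CPM in MPP2 without PBS replicate 3, so no order of the classes is read from these levels. Of the 39 cells with Ncr1, 31 were in MPP3.

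The second question was what remained outside cluster 8. A UMI of some gene of the 9 other than Nkg7 was found in 521 of the 16709 cells (3.12%), against 90 of 113 (79.6%) in cluster 8. UMIs of 3 or more of the 9 genes were found in 14 cells outside, 11 of them from AML replicate 3, against 52 of 113 cells in cluster 8. One AML replicate 3 cell of cluster 6, with 18269 UMIs in all, held 5 of the genes and 4 of the 5 Ncr1 UMIs found outside cluster 8. If the UMIs outside had kept the ratio to Ncr1 seen in cluster 8, there would have been 12.6 of Trbc1, 8.27 of Trbc2, 4.02 of Klrd1 and 14.7 of Nkg7. The counts outside were 42, 225, 376 and 15727. The scaled counts rest on only 5 Ncr1 UMIs, 4 of them from that cluster 6 cell, and have no interval. The source of the UMIs outside cluster 8 was not tested.

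Nkg7 was broad. It was detected in 44.6% of the cells outside cluster 8 (7457 of 16709), or in 19.0% with every cell thinned to 1500 UMIs, a depth all kept cells reach. Pooled over libraries it stood at 151, 208, 126, 198, 205, 133, 22.1 and 133 CPM in clusters 0 to 7. The lowest was cluster 6, which had the highest summed level of B cell and plasma cell markers (121069 CPM). Cluster 7 was taken as the cluster that should lack the genes, since it had the highest summed level of erythroid markers (15312 CPM against 114 to 5585 CPM in the other clusters). It had Nkg7 in 43 of 102 cells (42.2%, exact 95% interval 32.4 to 52.3), and so does not serve as a background for Nkg7. By library the mean over the 4 sums of cluster 6 was 17.3 ± 18.1 CPM (SD, n = 4), and over the 5 sums of cluster 2 it was 128 ± 5.13 CPM (SD, n = 5). The means of clusters 1, 3 and 4 were 199 ± 19.3, 190 ± 25.4 and 226 ± 58.7 CPM (SD, n = 5), and did not differ beyond their spread.

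Across the classes, the HSC class had the lowest Nkg7 level in each of the 5 libraries. In PBS replicates 1, 2 and 3 it stood at 88.4, 61.0 and 97.5 CPM in HSC, 216, 188 and 207 CPM in MPP2, 222, 164 and 231 CPM in MPP3, and 144, 127 and 134 CPM in MPP4. In AML replicates 1 and 3 it stood at 97.9 and 93.5 CPM in HSC, 204 and 189 CPM in MPP2, 168 and 186 CPM in MPP3, and 151 and 145 CPM in MPP4. The order of HSC, then MPP4, then the other 2 classes held in every library, while MPP2 and MPP3 traded places. With cells thinned to 1500 UMIs, the pooled share of cells with Nkg7 was 9.74% in HSC, 25.2% in MPP2, 22.1% in MPP3 and 17.7% in MPP4. Only 6 UMIs support the HSC value of AML replicate 1.

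**Figure D2:**
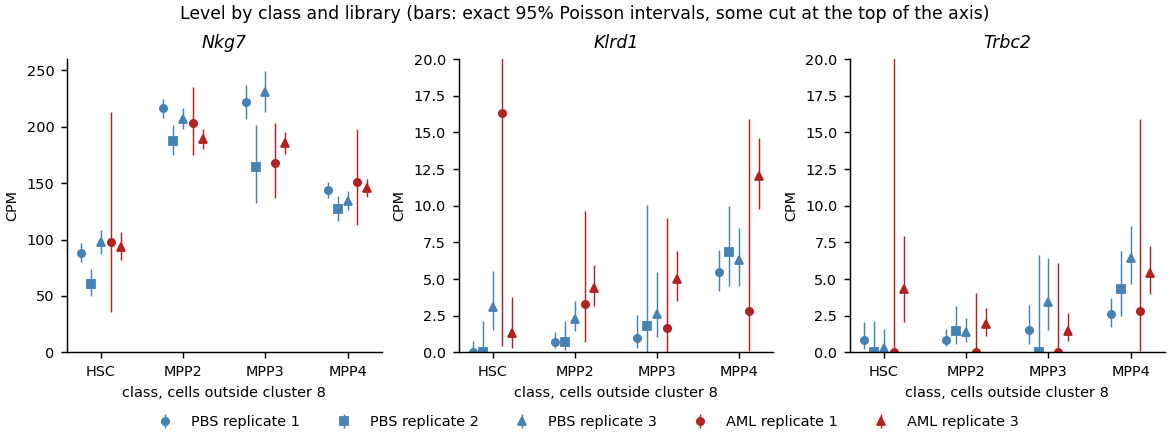
Level (vertical axis, CPM) of Nkg7, Klrd1 and Trbc2 in each class (horizontal axis) of the kept cells outside cluster 8, with 1 point per library, blue for PBS and red for AML, and exact 95% Poisson intervals that cover counting error only and are cut where they pass the top of the axis. The HSC class has the lowest Nkg7 point in every library, and MPP4 the highest Trbc2 point in every library.

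Klrd1 and Trbc2 outside cluster 8 lay mostly in cluster 2, whose 3733 cells include 3000 of the MPP4 class. Cluster 2 held 235 of the 376 Klrd1 UMIs outside cluster 8 (62.5%) and 143 of the 225 Trbc2 UMIs (63.6%). The Klrd1 level of cluster 2 was 7.92, 12.5 and 9.78 CPM for PBS and 6.62 and 19.7 CPM for AML replicates 1 and 3. It was detected in 5.41% of cluster 2 cells (1.74% when thinned), against 0 of 102 cells in cluster 7, which allows a share of up to 2.94%. The median depths were 4346 and 6380 UMIs. Cluster 4 had Klrd1 in 5.57% of its 826 cells (2.42% when thinned). Among MPP4 cells, the Klrd1 level was 5.48, 6.85 and 6.28 CPM for PBS and 2.85 and 12.0 CPM for AML replicates 1 and 3. MPP4 was the highest class in 4 of the 5 libraries, and in AML replicate 1, where Klrd1 has 6 UMIs in all, the HSC class was highest on 1 UMI.

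Trbc2 was highest in MPP4 in each of the 5 libraries, at 2.61, 4.31 and 6.43 CPM in PBS and 2.85 and 5.42 CPM in AML, where the value of AML replicate 1 rests on 1 UMI. It was detected in 2.97% of cluster 2 cells (1.18% when thinned). In cluster 7 it was in 2 of 102 cells (1.96%, exact 95% interval 0.238 to 6.90), which spans the share of cluster 2, so a level above that background was not detectable at this depth. Trbc1 outside cluster 8 had 42 UMIs in 25 cells, 27 of them in cluster 2 and 10 in a single cell. Ncr1, Gzma and Cd3e had 5, 1 and 2 UMIs outside cluster 8. Prf1 had 14, each in a separate cell, and 10 of the 14 were in cluster 2.

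Gzmb followed another pattern. Of its 72 UMIs, 66 were in 6 cells of cluster 4, with 4, 6, 9, 9, 13 and 25 UMIs each, and the other 6 UMIs were in 5 cells of clusters 0 and 1. The 11 cells held no UMI of the other 8 genes except Nkg7. Markers of mast cells and basophils (Cpa3, Mcpt8, Prss34, Ms4a2 and Fcer1a) moved with it. At least 3 of the 5 were detected in 5 of the 6 cells of cluster 4 with Gzmb, and in 18 of the 820 without it (2.20%), although the cells with Gzmb were shallower, at a median of 3862 against 8499 UMIs. Cpa3 was in 6 of the 6 cells and Fcer1a in 5. Of the 23 kept cells with 3 or more of these markers, all in cluster 4, 5 held Gzmb, and they carried 53 of the 72 UMIs. This grouping was chosen after the values were seen and was not tested.

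**Figure D3:**
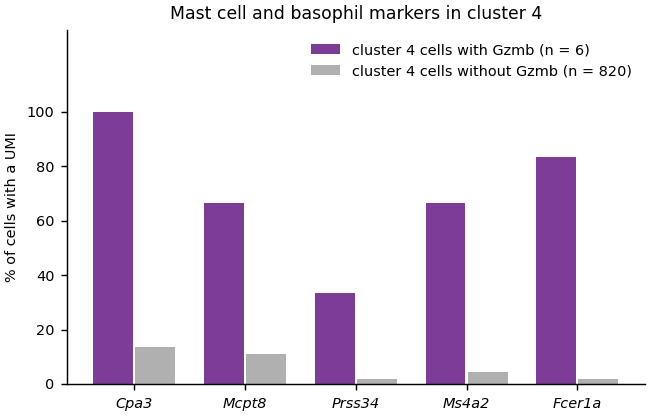
Share of cells with a UMI (vertical axis, percent) of each of 5 mast cell and basophil markers (horizontal axis) in the 6 cluster 4 cells with Gzmb and the 820 cluster 4 cells without it. Cpa3 is in 6 of the 6 cells with Gzmb, and each of the markers has a higher bar in these cells.

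Over library-by-cluster sums, the summed level of the 9 genes was nearly that of Nkg7. Over 40 sums of at least 10 cells, log2(CPM + 1) of the sum correlated with that of Nkg7 at Pearson's r of 0.97, and with those of Trbc2, Klrd1, Trbc1, Gzma, Ncr1 and Gzmb at 0.60, 0.59, 0.57, 0.56, 0.53 and 0.16. The 10 of 13631 genes most like the sum were Dnajc15 (0.89), Sri (0.87), Ncoa7, Ncor1, Zbtb25, Pdcd10, St6galnac3, Lmo4, Apbb1ip and Fau (0.84). None of these 10 is on a T cell, NK cell or cytotoxic list. The sums share libraries and differ in cell number and depth, and no p is given.

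The third question was whether the genes differ between AML and PBS. Summed over all kept cells per library and tested with edgeR, 23 of 14364 genes passed an adjusted p of 0.05 (0.16%), with 0.153% higher and 0.00696% lower in AML. Of the 9 genes, 7 passed the filter on low counts and 0 of the 7 were called. Cd3e and Prf1 were under the filter. In such sums, fewer cells of a type and less RNA per cell cannot be told apart. Unadjusted, 2 of the 7 had a p under 0.05, Klrd1 higher and Gzmb, which passed the filter only through PBS, lower in AML, beside 10.5% of all genes tested (5.51% higher and 5.01% lower). DESeq2 and limma-voom called 0 of the 9 as well. Outside cluster 8, 22 of 14324 genes passed (0.154%), with 0.147% higher and 0.00698% lower in AML, and 0 of the 5 genes tested there were called. At an unadjusted p under 0.05 there were 2 of the 5, again Klrd1 and Gzmb, beside 10.5% of all genes (5.47% higher and 4.98% lower). Ncr1, Gzma, Cd3e and Prf1 were under the filter there. With the 72 cells whose barcode was kept in another library left out, 0 were called in either comparison, and likewise with every cell left out whose barcode occurred in another library's matrix, which leaves no cell of PBS replicate 2.

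The level of Klrd1 was 2.55, 3.75 and 4.05 CPM for PBS replicates 1, 2 and 3, and 4.11 and 8.73 CPM for AML replicates 1 and 3. Both AML values lay above every PBS value, with AML replicate 1 only just above PBS replicate 3 and resting on 8 UMIs. The log2 fold change was 1.04 ± 0.347 (SE; edgeR p 0.00926, adjusted p 0.316). Outside cluster 8 the levels were 2.34, 2.99 and 3.67 CPM for PBS and 3.11 and 6.61 CPM for AML, so that the groups overlapped, and the log2 fold change was 0.86 ± 0.358 (edgeR p 0.0312, adjusted p 0.432). Without AML replicate 3 the value was 0.25 over all kept cells and 0.045 outside cluster 8. It was 1.03 and 0.87 without the 72 cells of shared barcodes, and 0.94 and 0.49 without every barcode found in another matrix.

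The level of Gzmb was 0.591, 0.769 and 1.72 CPM for PBS and 0 and 0.217 CPM for AML replicates 1 and 3. The fitted log2 fold change was -2.43 ± 0.840 (SE; edgeR p 0.0118, adjusted p 0.329) and -2.43 without the 72 cells of shared barcodes. Leaving out each library gave -7.18 to -1.70. The value depends on the prior count because AML replicate 1 is at 0. The depth of AML replicate 1 allows up to 1.54 CPM, which is above 2 of the 3 PBS values. The 72 UMIs come from 11 cells, and the count filter was passed through the PBS libraries. Cells with 3 or more mast cell and basophil markers numbered 7, 2 and 10 in the PBS libraries and 0 and 4 in AML, and their part in the result was not tested.

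Nkg7 was at 172, 145 and 172 CPM in PBS and at 182 and 172 CPM in AML. AML replicate 3 lay above PBS replicate 3 by less than 1 CPM, so the groups barely failed to overlap. Its fitted difference (log2) was 0.092 ± 0.238 (SE; edgeR adjusted p 0.912), and outside cluster 8 it was 0.077 ± 0.239 (adjusted p 0.928) with overlapping groups. Among all genes tested, 29.7% had groups that did not overlap, and among the 7 tested here these were Klrd1, Nkg7 and Gzmb. Outside cluster 8 they were Gzmb alone among the 5 tested, against 29.6% of all genes. Prf1, which was untested, also did not overlap there, and its AML libraries hold 0 and 2 UMIs beside 8, 2 and 2 for PBS.

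The T cell receptor genes and Gzma spread more within a group than between groups. Trbc1 over all kept cells was at 1.03, 5.57 and 3.21 CPM in PBS and 0 and 5.33 CPM in AML, a fitted log2 difference of 0.28 ± 0.656 (SE; edgeR adjusted p 0.901). The sign of that fit goes against the group means of 3.27 CPM for PBS and 2.66 CPM for AML, so no direction is read from it. Trbc2 was at 2.12, 3.08 and 4.97 CPM in PBS and 1.03 and 6.77 CPM in AML, with 0.54 ± 0.475 (adjusted p 0.680). Ncr1 was at 0.374, 1.63 and 0.748 CPM in PBS and 0.514 and 2.35 CPM in AML, with 1.16 ± 0.626 (adjusted p 0.523). In each of the 3, AML replicate 3 and AML replicate 1 lay on opposite sides of at least 1 PBS library, and without AML replicate 3 the fitted values were -8.74, -1.74 and -0.69. That fit sets the single library AML replicate 1 against PBS, with the spread taken from the PBS libraries alone. Gzma was at 0.0311, 2.88 and 0.616 CPM in PBS and 0 and 0.906 CPM in AML, with -0.45 ± 1.12 (adjusted p 0.909), and 1.26 without PBS replicate 2. Outside cluster 8, Trbc1 had 1.17 ± 0.841 (adjusted p 0.621) and Trbc2 0.092 ± 0.476 (adjusted p 0.962), the latter again against the group means of 2.25 CPM for PBS and 1.79 CPM for AML.

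**Figure D4:**
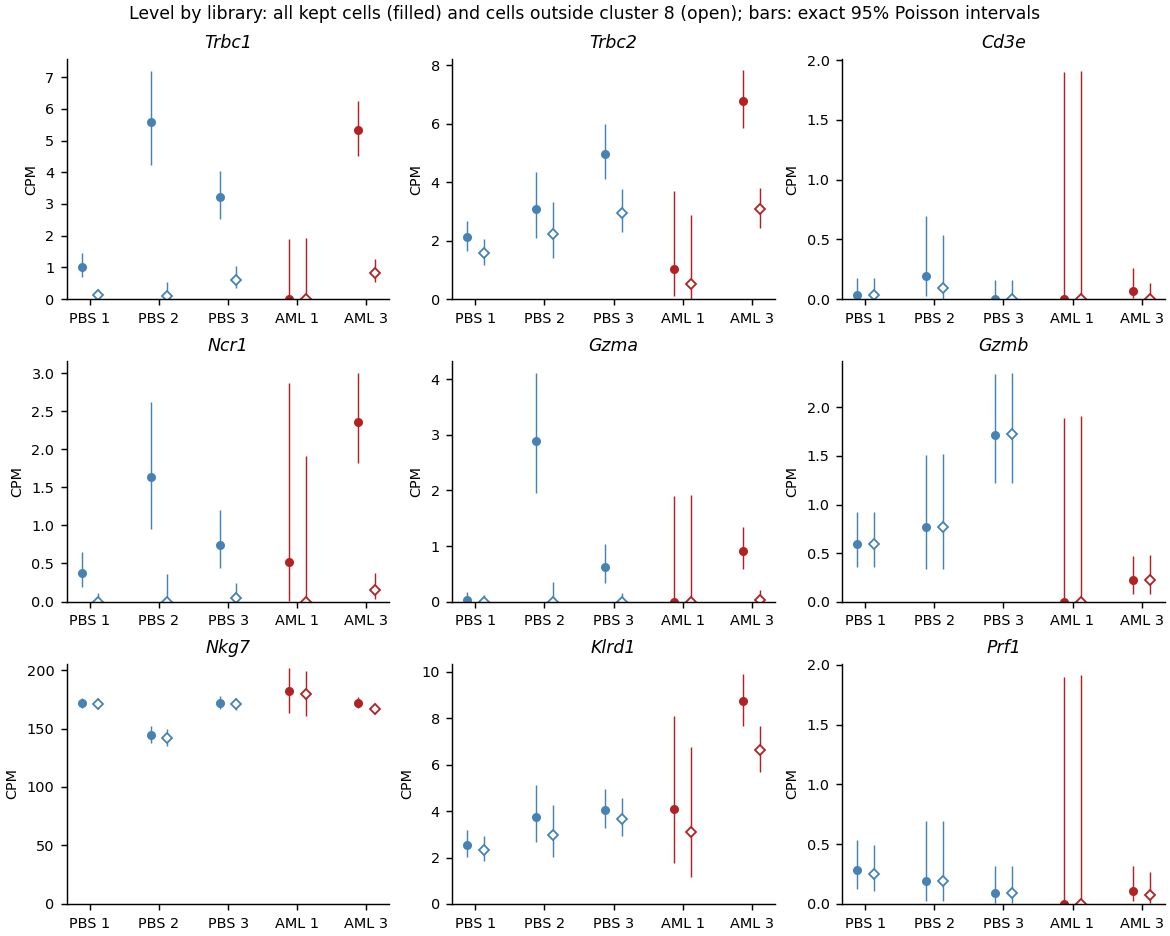
Level (vertical axis, CPM) of each of the 9 genes in the 5 libraries with kept cells (horizontal axis), blue for PBS and red for AML, over all kept cells (filled) and over cells outside cluster 8 (open), with exact 95% Poisson intervals that cover counting error only. Klrd1 is highest in AML replicate 3, and Trbc1, Ncr1 and Gzma are near 0 once cluster 8 is left out.

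The wider lists were counted in the same fit. Of the 26 genes on the T cell receptor and CD3 list, 19 were tested and 0 passed, with 12 fitted values above 0. At an unadjusted p under 0.05, 1 was higher and 1 lower. The median log2 fold change was 0.28, beside a median of -0.031 over all genes. Of 24 NK cell genes, 13 were tested and 0 passed, with 13 of 13 fitted values above 0 and a median of 1.32. At an unadjusted p under 0.05, 9 were higher, where 5.51% of all genes were higher. The 13 values come from the same libraries and are not independent. Klrb1a, Il2rb and Klrc1 had 47, 39 and 25 UMIs in cluster 8 against 6, 2 and 1 outside. Of the 113 cluster 8 cells, 52 were from AML replicate 3. Whether such genes passed the filter only through AML was not examined, and the list was not refitted without that library. Of 24 cytotoxic effector genes, 19 were tested and 0 passed, with 9 above 0, 3 higher and 3 lower at an unadjusted p under 0.05 and a median of -0.19. Over all genes, 47.0% of fitted values were above 0. Outside cluster 8, 7 NK cell genes were tested and 0 passed, with 7 of 7 above 0, 5 higher at an unadjusted p under 0.05 (5.47% of all genes) and a median of 0.86. These 7 were Klrd1, Klrb1c, Klrk1, Cd244a, Slamf7, Tyrobp and Fcer1g, of which Tyrobp and Fcer1g, signaling adaptors, are also expressed by myeloid cells. Markers of monocytes and dendritic cells were likewise above 0 for 5 of 5 tested genes outside cluster 8, with a median of 1.51, 3 higher at an unadjusted p under 0.05 and 0 passing. Summed over the 7 genes of that list they stood at 4.24 to 8.84 CPM in the PBS libraries and at 20.7 and 23.9 CPM in the AML libraries, and their part in the NK values was not tested. Outside cluster 8, values above 0 numbered 7 of 14 on the T cell receptor and CD3 list, 8 of 17 cytotoxic and 4 of 6 ILC2 genes. They numbered 3 of 8 B cell and plasma cell, 1 of 5 neutrophil, 0 of 8 erythroid, 1 of 5 mast cell and basophil, and 2 of 11 stem and progenitor genes. The neutrophil and erythroid medians were -1.08 and -1.03, and 0 genes of these lists passed.

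The last comparison was the share of kept cells in cluster 8. It was 28 of 6838 (0.409%), 5 of 934 (0.535%) and 23 of 4398 (0.523%) in the PBS libraries, and 5 of 693 (0.722%) and 52 of 3959 (1.31%) in AML replicates 1 and 3. Both AML shares lay above every PBS share, but the exact 95% interval of AML replicate 1 (0.235 to 1.68) contained all 3. The means were 0.489 ± 0.0694% (SD, n = 3) and 1.02 ± 0.419% (SD, n = 2), a difference of 0.528 percentage points (exact two-sided permutation test, p = 0.1, the smallest p that 3 against 2 libraries allow). The difference came to 0.232 when AML replicate 3 was left out, 0.824 when AML replicate 1 was, and 0.516 without the 72 cells of shared barcodes. Without every barcode found in another matrix, the shares were 0.409% and 0.562% for PBS replicates 1 and 3 and 0.460% and 2.00% for AML replicates 1 and 3, so that AML replicate 1 lay below PBS replicate 3 and the groups overlapped. Counted instead as kept cells with UMIs of 3 or more of the 9 genes, the shares were 0.102, 0.428 and 0.273% in PBS and 0.144 and 1.06% in AML, so that AML replicate 1 fell within the PBS range.

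**Figure D5:**
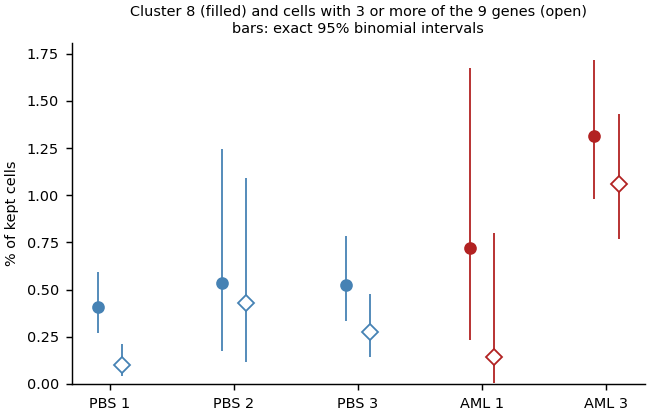
Share of kept cells (vertical axis, percent) in cluster 8 (filled) and with UMIs of 3 or more of the 9 genes (open) in the 5 libraries with kept cells (horizontal axis), blue for PBS and red for AML, with exact 95% binomial intervals. AML replicate 3 is highest by both counts, at 1.31% and 1.06%, and AML replicate 1 is above the PBS libraries by the first count only.

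AML replicate 2 could be described only outside the cell table. When all barcodes were filtered anew for 1000 or more genes and no more than 10% mitochondrial UMIs, 106 of its barcodes passed, and 0 of them held 3 or more of the 9 genes, which allows a share of up to 2.83%. In the other AML libraries 1 of 800 and 47 of 5062 such barcodes did, and in PBS 9 of 8609, 5 of 1155 and 13 of 5729. Over these 6 libraries the difference of mean shares was 0.0964 percentage points (exact two-sided permutation test, p = 0.9). Barcodes shared between libraries were not left out of these counts.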

How the data were processed

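Per the labels, libraries were made with Chromium GEM V3 chemistry, and the processing notes name Cell Ranger 7.0.1, R 4.2.2, Seurat 4.3.0 and GRCm38/mm10. The authors deposited UMI counts per gene and barcode, without normalization, and a table of kept cells with a cluster, a class and the count of UMIs and genes per cell, which equalled the matrix sums here for every cell. The percent of mitochondrial UMIs per cell in that table was computed by the authors and was not used. The filter on cells, the clustering settings, the handling of doublets and the end of the transcript that was read are details not given in the sources used here. No doublet caller was run. All 9 Ensembl identifiers, and 32158 of 32285 in all, were found in GENCODE vM21.

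UMI counts of kept cells were summed per library, with the library as the replicate. PBS (3) and AML (2) libraries were compared with edgeR 4.0.16 (TMM, filterByExpr, quasi-likelihood test, Benjamini-Hochberg adjustment over all genes, threshold 0.05). The code was tested on simulated data. CPM use the plain total, with exact 95% Poisson intervals. Intervals and limits from a count of 0 (3 counts) cover counting error only. Shares of libraries were compared with an exact permutation test over 10 splits. Alternatives were DESeq2 1.42.0, limma-voom 3.58.1, library size only, no filter, the replicate number as a block, leaving out each library, thinning to 1500 or 1000 UMIs, and other choices of cells.

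All 9 genes were named in every comparison, wider list genes only at an adjusted p under 0.05 (at most 4 a list) unless said otherwise. Likeness was Pearson's r among genes with at least 50 UMIs, or with a UMI in at least 10 cluster 8 cells. Cluster 8 was to be called T and NK-like if at least 3 of its 10 leading genes were on the first 2 of 10 lists and no other list had more. The genes, lists and rules were chosen with earlier results of these data known.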

Additional observations from a re-analysis of the deposited data

Results flagged for a closer look

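Barcodes outside the authors' cell table entered none of the tests over kept cells, and Trbc1 and Klrd1 stood above the highest PBS value there in 2 of the 3 AML libraries each, with the whole interval above it in AML replicate 3 only. In AML replicate 3, Trbc1 was at 4.38 CPM (31 UMIs, exact 95% Poisson interval 2.98 to 6.22), whereas the highest PBS library was at 2.41 CPM (6 UMIs, interval 0.886 to 5.26). AML replicates 1 and 2 were at 3.57 and 1.97 CPM, the latter below that PBS library. In the same library Klrd1 was at 4.24 CPM (30 UMIs, interval 2.86 to 6.06), whereas the highest PBS library was at 1.54 CPM (14 UMIs, interval 0.841 to 2.58). AML replicates 1 and 2 were at 1.19 and 2.40 CPM, the former below that PBS library. Both were picked because the lower end of the interval lay above every PBS value. The same rule was met in some AML library by 50.1% of the 12474 genes with at least 50 UMIs in these barcodes, and by 2 of the 4 of the 9 genes with that many, a share near that of all genes. In AML replicate 3 alone it was met by 15.8% of all genes. The intervals cover counting error only, and groups of 3 libraries were too small for a check of single libraries that stand apart. Barcodes shared between libraries were not left out here, and 6900 of the 17055 of AML replicate 2 are in another library's matrix.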

How the results depend on the processing

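None of the 9 genes was called in any alternative of either comparison. The 12 fitted values of tested genes were recomputed 168 times in all, kept their direction 151 times and reversed 17 times. Over all kept cells, reversals were Trbc1 with DESeq2 (-0.28), Gzma with limma-voom (1.31), with the replicate block (0.37), with cells thinned to 1500 UMIs (0.54) and without barcodes that occur in another library's matrix (1.81), and Nkg7 with the own filter on 6 libraries (-0.0057). Outside cluster 8 they were Trbc2 with DESeq2 (-0.046), with the replicate block (-0.36) and with the cells of 3 or more of the genes left out (-0.36). Leaving out each library gave -8.74 to 0.82 for Trbc1, -1.74 to 1.01 for Trbc2, -0.69 to 1.76 for Ncr1 and -7.10 to 1.26 for Gzma over all kept cells, and -5.38 to 1.44 for Trbc1 and -2.11 to 0.42 for Trbc2 outside cluster 8. Causes were not tested. Klrd1 stayed above 0 in all 30. Gzmb was below 0 in the 25 that could be fitted, but as it passed the filter only through the PBS libraries, where it is higher, its sign is no sign of stability.

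Genes called, over all kept cells and outside cluster 8, numbered 83 and 76 with DESeq2, 392 and 387 with no filter, and 2 to 419 and 2 to 449 on leaving out each library (lowest without PBS replicate 1, highest without AML replicate 3, 8 and 8 without PBS replicate 2). Without AML replicate 3, the AML group is AML replicate 1 alone, which is assumed to vary like the PBS libraries. With the own filter they numbered 75, and in MPP4 cells outside cluster 8, chosen after the data were seen, 4. With barcodes present in another library's matrix left out, also chosen after the data were seen, 0 and 0 were called by edgeR (324 and 311 at an unadjusted p under 0.05). This removes all 934 kept cells of PBS replicate 2. Leaving out only the 72 cells whose barcode was kept in another library gave 21 and 22. The difference in the share of cluster 8 was 0.742 percentage points without barcodes found in another matrix (groups then overlapping), 0.516 without the 72 cells, and 0.232 to 0.824 on leaving out each library. Counting cells with 3 or more of the 9 genes instead, a different measure, gave 0.335 over kept cells and 0.0964 over the own filter of 6 libraries.

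With the replicate block, 91 and 87 genes were called. Same-numbered libraries did not deviate together (r -0.092 and -0.13 over 13631 genes), so the numbers were not taken as pairs. Mean shares of cells outside cluster 8 with a UMI, thinned in the main analysis, were unthinned 0.133% for Trbc1, 1.07% for Trbc2, 0.0245% for Cd3e, 45.3% for Nkg7, 1.95% for Klrd1 and 0.0859% for Prf1, and thinned to 1000 UMIs 14.0% for Nkg7. AML replicate 1, with 1945659 UMIs, limits each gene it lists at 0.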
